A study of Mus musculus with 9 samples.

Results

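The mitochondrial ribosomal protein genes were the genes of the deposited table that carried an Ensembl identifier, a symbol beginning with Mrpl or Mrps and a number, and a mean of at least 0.5 FPKM over the 9 libraries. FPKM is fragments per kilobase of transcript, scaled to sequencing depth, so that a comparison between genes rests on the length assumed for each. The rule found 78 of the 27339 genes in the table, and no gene of the name pattern fell below the threshold. Of the 78 genes, 51 encode proteins of the large subunit and 27 proteins of the small subunit of the mitochondrial ribosome.

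The libraries were bulk RNA sequencing of mouse substantia nigra pars compacta, a dopamine-producing nucleus of the midbrain. There were 3 libraries each of control mice (Ctrl), of mice that received MPTP, and of mice that received MPTP and were fed a ketogenic diet of medium-chain triglycerides (MPTP + MCT-KD, the diet group). MPTP is converted to a toxin that dopamine neurons take up and that blocks complex I of the respiratory chain. The sources used here give no strain, sex, age, dose or length of diet, and diet without MPTP was not analysed here. Nothing in the labels says whether the libraries of a group came from separate animals, so the p-values measure only the spread between these libraries.

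Mitochondria carry their own ribosome, which translates the 13 protein-coding genes of the mitochondrial genome into core subunits of complexes I, III and IV and of the ATP synthase. Its ribosomal RNAs come from the mitochondrial genome, while all of its proteins are encoded in the nucleus, made in the cytosol and imported. Some of these proteins have counterparts in bacterial ribosomes, and others were acquired by the mitochondrial ribosome and are specific to it. The genes are expressed in nearly all cell types, and regulators such as NRF1 (nuclear respiratory factor 1), the ETS-family factor GABPA and YY1 are known to act on many nuclear genes of mitochondrial function.

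Promoter windows for 69 of the 78 genes were found in the RefSeq table (GRCm38.p6), 75 windows in all, each reaching from 250 bases before to 50 after the annotated start. The genes Mrpl13, Mrpl15, Mrpl19, Mrpl38, Mrpl4, Mrpl54, Mrps28, Mrps34 and Mrps35 had no entry. The following stretches of 30 bases are shown because they hold the words searched for. They come from the 3 Mrps18 paralogs and from Mrpl32, the gene of lowest mean FPKM. Each paralog is among the genes of smallest p in at least 1 comparison below. Capitals mark CCGGAAG or its reverse complement (the core of ETS-family sites) and GCATGCG (a core of the NRF1 site), on the strand of the gene.
Mrps18a, ETS word, chr17:46110967-46110996, plus strand: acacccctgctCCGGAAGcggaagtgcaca
Mrps18b, NRF1 word, chr17:35916394-35916423, minus strand: gcgtgtcccgaGCATGCGcagtcgctcttc
Mrps18b, ETS word, chr17:35916391-35916420, minus strand: tgtcccgagcatgcgcagtcgctCTTCCGG
Mrps18c, ETS word, chr5:100798592-100798621, plus strand: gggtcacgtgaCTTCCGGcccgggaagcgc
Mrpl32, NRF1 word, chr13:14613041-14613070, minus strand: gcggacttaacGCATGCGctcagcccgcgt

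In Mrps18a the ETS word began 26 bases before the start. In Mrps18b the NRF1 word began 28 bases after the start base, and the ETS word, in the same stretch, 43 bases after it. The ETS word of Mrps18c lay 156 bases before the start, and the nearest NRF1 word of Mrpl32 began 22 bases before it. These distances count from the RefSeq start. Starts in GENCODE M21, the annotation used for gene positions below, differ. There Mrps18c starts at base 100798627, closer to its word, which still lies before the start. Mrps18b starts at 35916389 and Mrpl32 at 14613165. By these starts the printed Mrps18b words lie before the start and the Mrpl32 word after it. Counted on both strands, the ETS word was in 26 of the 75 windows (34.7%), against 15.6% of the 13888 windows of genes tested and 8.86% of all 32851 windows in the table. The NRF1 word was in 8 windows (10.7%), against 5.93% and 3.58%. The word AAGATGG, found in YY1 sites, was in 13 windows (17.3%), against 6.65% and 6.34%. The word TATAAA was in 5 windows (6.67%), against 7.03% and 13.6%. For the 67 windows of cytosolic ribosomal protein genes, the ETS share was 37.3%, and for the 34 windows of nuclear complex I genes it was 11.8%. In the same order, the NRF1 share was 7.46% and 8.82%, the share of AAGATGG 16.4% and 20.6%, and that of TATAAA 8.96% and 14.7%. The NRF1 word reads nearly the same on both strands, so that matches on opposite strands overlapped, and each window was counted once. A match is a run of letters and was not tested as a binding site. Median GC content was 58.7% in these windows and 60.7% in those of all genes tested.

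All 78 genes were found in GENCODE M21 (GRCm38), on 17 chromosomes with 11 genes on chromosome 11 and 8 on chromosome 17. They were short, with a median span of 7.90 kb against 25.1 kb for the 13791 protein-coding genes tested. A protein-coding gene started on the opposite strand within 1000 bases of the start of 18 of them (23.1%), against 9.31% of all protein-coding genes tested, 24.3% of complex I genes and 10.4% of cytosolic ribosomal protein genes. Such head-to-head pairs were Mrpl32 with the proteasome gene Psma2 (75 bases apart), Mrpl49 with Fau (59 bases), Mrps12 with the mitochondrial seryl-tRNA synthetase gene Sars2 (172 bases) and Mrps34 with Eme2 (29 bases). Exons of 28 genes (35.9%) overlapped those of a gene on the other strand, against 30.8% of all. The sources used here do not give the strand setting of the counting, so reads of such pairs cannot be told apart.

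The libraries held 33.2 to 40.0 M counts (M, the prefix mega), and the 78 genes took 0.198% to 0.207% of them, with at least 169 counts for every gene in every library. The library Ctrl 3 stood apart through choroid plexus markers. Their 8 genes summed to 1265 CPM (counts per M library counts) there and to 28.9 to 103 CPM in the other libraries. Other markers varied within groups too. The 5 markers of serotonin neurons summed to 63.8 to 172 CPM in Ctrl. They summed to 34.3 (MPTP 1) to 170 CPM in MPTP and to 43.0 (diet 1) to 197 CPM in the diet group. Defining markers of dopamine neurons were present in every library, and the 10 markers summed to 850 to 1008 CPM in Ctrl, 707 to 817 in MPTP and 666 to 821 in the diet group.

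Summed over the 78 genes, the group means differed by less than the spread between libraries. The sum was 1397 ± 13.3 FPKM in Ctrl, 1391 ± 32.2 in MPTP and 1390 ± 17.7 in the diet group (SD, n = 3). The large-subunit genes summed to 960 ± 12.6 FPKM in Ctrl, 962 ± 24.3 in MPTP and 970 ± 16.5 in the diet group. The small-subunit genes summed to 437 ± 1.63 FPKM in Ctrl, 429 ± 10.3 in MPTP and 420 ± 4.29 in the diet group, where every library (415 to 423) lay below every Ctrl library (435 to 438). Of the small-subunit sum, Mrps34 alone gave 32.2 ± 2.42, 28.6 ± 5.94 and 20.1 ± 1.002 FPKM in the 3 groups. Without it the other 26 small-subunit genes summed to 405 ± 3.91 FPKM in Ctrl (401 to 408), 400.4 ± 4.59 in MPTP and 399.7 ± 5.28 in the diet group (394 to 404), where the library values of the diet group and Ctrl overlapped.

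Mean levels per gene spanned 15.2-fold, from 3.40 FPKM for Mrpl32 to 51.5 FPKM for Mrpl42, with a median of 17.5. The median over all 14949 genes tested was 7.78 FPKM, that of 37 nuclear complex I genes 62.5 and that of 77 cytosolic ribosomal protein genes 120.8. The medians of the classes lay close together, at 19.5 FPKM for the 30 conserved large-subunit genes, 17.2 for the 21 mitochondria-specific ones, 14.1 for the 16 conserved small-subunit genes and 15.5 for the 11 mitochondria-specific ones.

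By FPKM, Mrpl42 stood alone at the top. Its libraries lay between 47.0 and 56.0 FPKM, and those of the next gene, Mrpl30, between 34.8 and 40.8. Mrpl30, Mrpl41, Mrpl20, Mrps18a and Mrpl12 followed with means of 37.5, 37.2, 32.9, 32.9 and 32.5 FPKM, and neighbours in this order overlapped across the libraries. Mrpl12 encodes a stalk protein of the large subunit that has also been described to bind the mitochondrial RNA polymerase, and Mrps18a, despite its name, encodes a large-subunit protein. At the low end stood Mrpl1, Mrpl47, Mrps35, Mrpl17, Mrps16 and Mrpl32, with means of 4.84, 4.75, 4.56, 4.49, 4.005 and 3.40 FPKM. The libraries of Mrpl32, from 3.02 to 4.18 FPKM, overlapped those of Mrps16, from 3.595 to 4.79. This order depends on the length by which the counts of a gene are divided. The length that count and FPKM imply was 690 to 697 bases for Mrpl42 and 6048 to 7648 for Mrpl17. On CPM, which are not divided by length, Mrpl12 (39.8 to 51.1) lay above Mrpl42 (32.3 to 39.5). The plot of levels by library shows the order for each subunit.

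**Figure D1:**
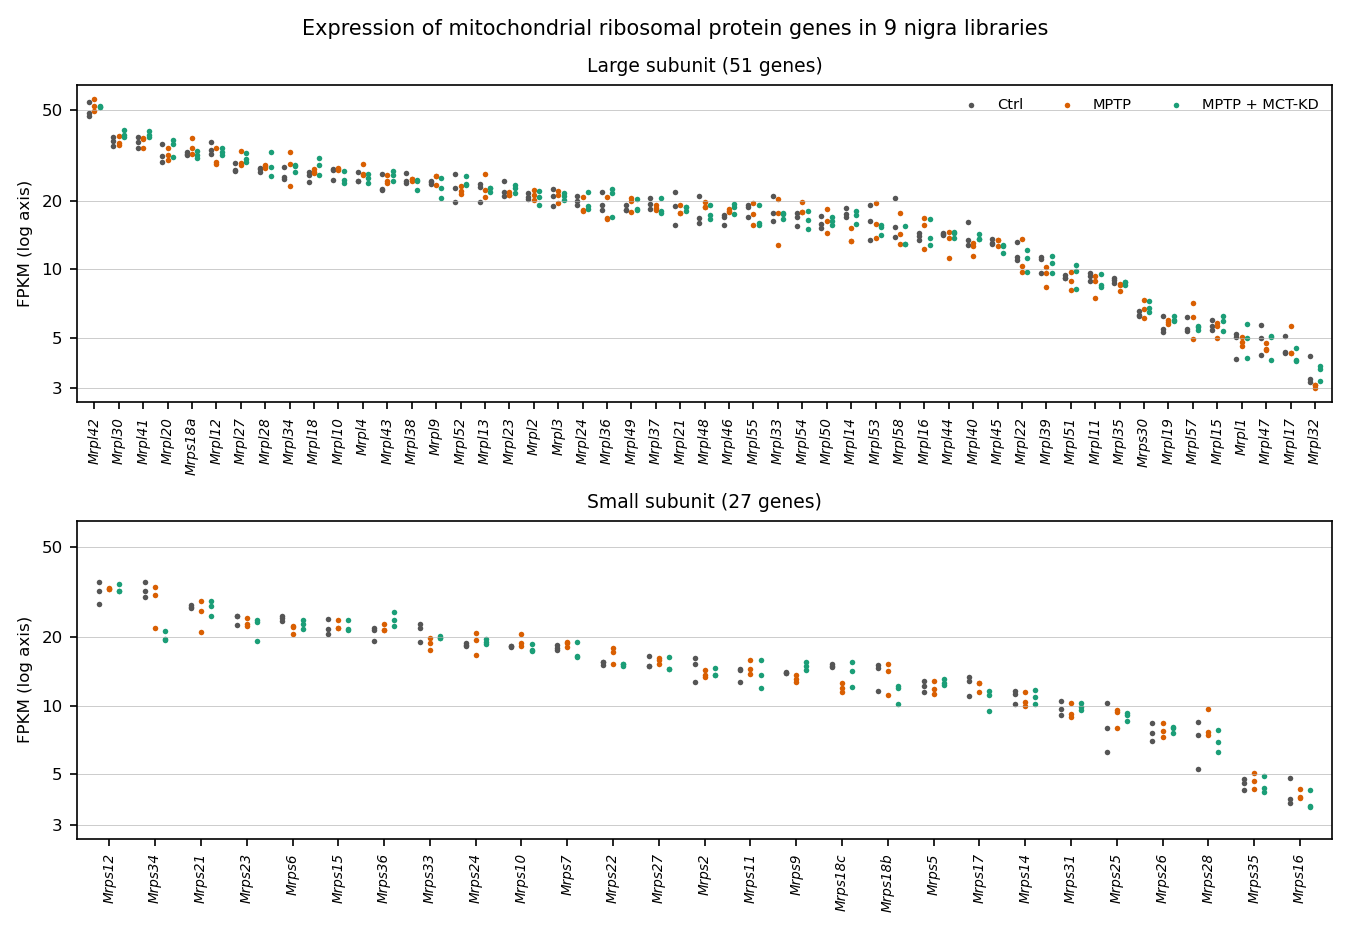
FPKM of each gene in each library (log axis), with 51 large-subunit genes above and 27 small-subunit genes below in order of mean level. Points are single libraries, coloured by group. Mrpl42 lies above the rest at 47.0 to 56.0 FPKM, and Mrps34 is the gene whose 3 diet libraries lie furthest from its Ctrl libraries.

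Single genes varied little between libraries. The coefficient of variation of the CPM over the 9 libraries had a median of 7.47%, against 8.93% for all genes tested, 6.39% for complex I genes and 4.26% for cytosolic ribosomal protein genes. It was below 10% for 60 of the 78 genes, and for 8396 of all 14949 genes tested. The same held for 32 of 37 complex I genes and 66 of 77 cytosolic ribosomal protein genes. Mrpl17 varied least, at 3.98%, and Mrps34 most, at 26.1%. Mrps28 came next, at 16.6%, with its lowest value in Ctrl 2 (4.39 CPM) and its highest in MPTP 2 (7.97 CPM). The median deviation of the 78 genes from their Ctrl means lay between -0.067 (MPTP 3) and 0.053 (MPTP 1) on the log2 scale, so that libraries of a group differed from each other as much as groups did.

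**Figure D2:**
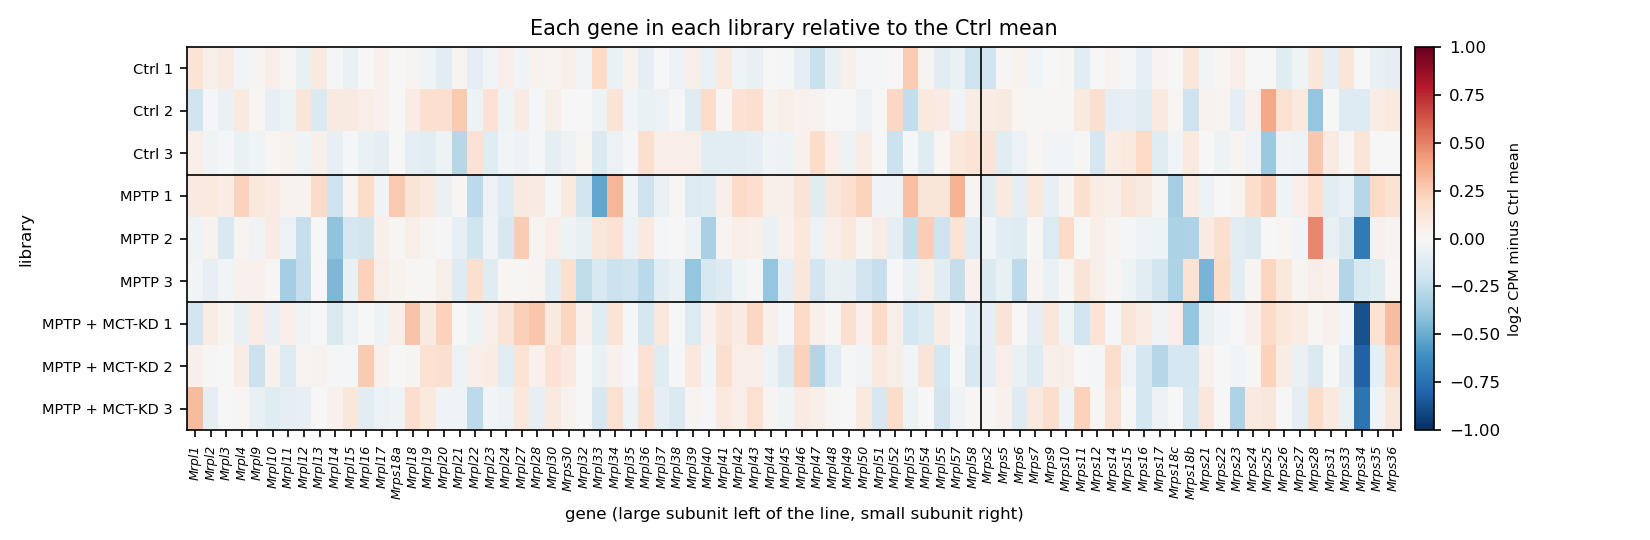
Log2 CPM of each gene in each library minus the mean of the gene in Ctrl. Columns are genes, with the large subunit left of the vertical line. Rows are libraries, with horizontal lines between groups. Mrps34 is the one column that is dark blue in all 3 diet libraries and in MPTP 2.

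MPTP was compared with Ctrl to ask whether the toxin changed the messenger RNAs of this ribosome. No gene passed an adjusted p of 0.05 by edgeR's quasi-likelihood test, where 0.0134% of all genes tested did, and DESeq2 called 0 of the 78 (background 0.0938%). The smallest adjusted p among the 78 genes was 0.893. The genes split evenly, with 38 above and 40 below Ctrl and a median log2 fold change of -0.0076, against -0.0009 for all genes tested. Fold changes ranged from -0.37 to 0.22 on the log2 scale, and 75 of the 78 lay within 0.25 of no change. Of all 14949 genes tested, 12959 did. The 95% confidence interval lay within 0.5 of no change for 72 genes, and for 10610 of all genes tested. The median distance from estimate to bound was 0.19, against 0.22 for all genes tested. An unadjusted p under 0.05 was reached by 3 genes, Mrpl14, Mrps34 and Mrps18c, all lower (background for lower genes 2.69%), and by none that was higher (background 2.68%, or 5.36% in either direction). On CPM the groups did not overlap for 2 higher and 8 lower genes, against 5.14% and 5.41% of all genes tested, or 10.5% in either direction. In this bulk tissue, fewer cells of a type and less RNA per cell cannot be told apart.

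Mrpl14 (ENSMUSG00000023939, chr17:45686322-45698495, plus strand), a conserved protein of the large subunit, measured 11.9, 12.8 and 11.4 CPM in Ctrl, 10.4, 9.09 and 8.80 in MPTP and 10.9, 11.9 and 12.4 in the diet group. All 3 MPTP libraries lay below every other library. The log2 fold change of MPTP against Ctrl was -0.35 (SE 0.12, edgeR adjusted p = 0.893), which missed the threshold. Mrpl14 shares 106 exonic bases with Tmem63b on the other strand, a gene chosen after values were seen, which measured 118 to 133 CPM throughout.

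Mrps18c (ENSMUSG00000016833, chr5:100798627-100804471, plus strand) encodes the paralog that takes the place of the bacterial S18 protein in the small subunit. It measured 10.1, 10.2 and 9.87 CPM in Ctrl, 7.98, 8.06 and 8.13 in MPTP and 10.6, 8.91 and 10.1 in the diet group. The MPTP libraries were again the lowest of the 9, and they were close together. The log2 fold change was -0.32 (SE 0.12, edgeR adjusted p = 0.893). Its head-to-head neighbour Helq, 29 bases away, measured 8.32 ± 1.121 CPM in Ctrl and 8.003 ± 1.41 in MPTP (SD, n = 3).

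In the other paralogs the MPTP libraries were not the lowest, and the difference between paralogs was not tested. Mrps18a measured 29.8, 29.8 and 29.9 CPM in Ctrl, 35.7, 30.02 and 30.6 in MPTP and 31.2, 29.9 and 28.9 in the diet group, with MPTP 1 standing above the rest. Mrps18b, a small-subunit protein, measured 16.5, 13.2 and 16.3 CPM in Ctrl, 16.1, 12.3 and 16.9 in MPTP and 11.7, 13.6 and 13.6 in the diet group. For Mrps18b the groups overlapped in every comparison.

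Among the remaining genes, Mrpl40 had a log2 fold change of -0.21 in MPTP (edgeR adjusted p = 0.907), Mrps33 -0.17, Mrps6 -0.16, Mrpl39 -0.19 and Mrpl12 -0.14. The genes of smallest p above Ctrl were Mrpl46 at 0.12, Mrps22 at 0.12, Mrpl27 at 0.12, Mrps18a at 0.11, Mrpl4 at 0.10, Mrpl54 at 0.14, Mrps28 at 0.22 and Mrps10 at 0.078. Adjusted p-values of these 8 genes were between 0.926 and 0.956.

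**Figure D3:**
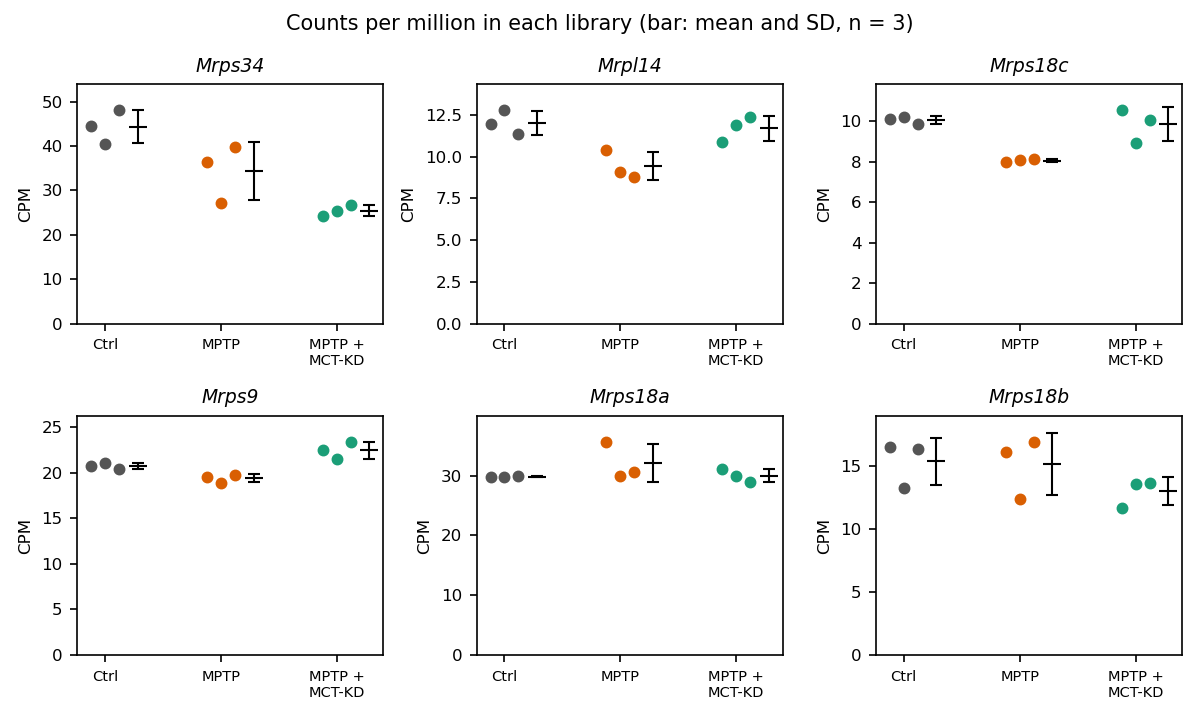
CPM of 6 genes in each library (points, from 0), with the mean and SD of each group (bar, n = 3). The means of Mrps34 are 44.3, 34.4 and 25.4 CPM in Ctrl, MPTP and the diet group, and Mrpl14 and Mrps18c are lowest in the MPTP libraries.

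The diet group was compared with MPTP to ask what the diet changed in mice that had received the toxin. No gene passed the threshold by edgeR, none of all genes tested did (0%), and DESeq2 called 0 of the 78 (background 0.127%). The smallest adjusted p was 0.587. In this comparison 47 of the 78 genes lay above MPTP and 31 below, and of all 14949 genes tested 7497 lay above. The median log2 fold change was 0.032, against 0.0006 for all genes tested. The class furthest above MPTP was that of the 30 conserved large-subunit genes, of which 22 lay above, with a median of 0.053. Of the mitochondria-specific large-subunit genes 11 of 21 lay above, with a median of 0.0099. In the small subunit 9 of 16 conserved genes (median 0.020) and 5 of 11 mitochondria-specific ones (median -0.035) did. The median of the 78 genes was 0.016 without MPTP 3, 0.0087 without diet 1, 0.063 without MPTP 1, and 0.012 by limma on log2(FPKM + 0.1). An unadjusted p under 0.05 was reached by 3 higher genes (background 3.76%) and 1 lower gene (background 4.02%, or 7.78% in either direction). On CPM the groups did not overlap for 9 higher and 1 lower gene, against 6.64% and 7.10% of all genes tested, or 13.7% in either direction.

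The 3 higher genes were Mrps9, Mrpl14 and Mrps18c, and the lower one was Mrps34. Mrps9 (ENSMUSG00000060679), a conserved small-subunit protein, measured 20.8, 21.1 and 20.4 CPM in Ctrl, 19.6, 18.9 and 19.8 in MPTP and 22.5, 21.5 and 23.4 in the diet group. Every diet library lay above every other library. The log2 fold change was 0.21 (SE 0.079, edgeR adjusted p = 0.628). For Mrpl14 it was 0.31 (SE 0.12, adjusted p = 0.628) and for Mrps18c 0.29 (SE 0.12, adjusted p = 0.630). These comparisons share the MPTP libraries with the comparison of MPTP with Ctrl, in which the same low MPTP values stood.

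Mrpl40, which did not pass either, measured 16.6, 14.4 and 16.2 CPM in MPTP and 18.7, 17.8 and 17.9 in the diet group, a log2 fold change of 0.20. The log2 fold change was 0.19 for Mrpl39, 0.13 for Mrpl30, 0.14 for Mrpl41 and 0.18 for Mrpl32. Below MPTP, the genes of smallest p after Mrps34 were Mrpl10 at -0.11, Mrps18b at -0.22, Mrps22 at -0.13, Mrpl9 at -0.10, Mrps18a at -0.098, Mrps7 at -0.087 and Mrpl54 at -0.14. The 8 markers of oligodendrocytes summed to 10873 to 13152 CPM in MPTP and 12818 to 14157 in the diet group, and the 8 markers of meningeal fibroblasts to 382 to 711 and 460 to 1265. The part of such cells in these values was not tested.

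**Figure D4:**
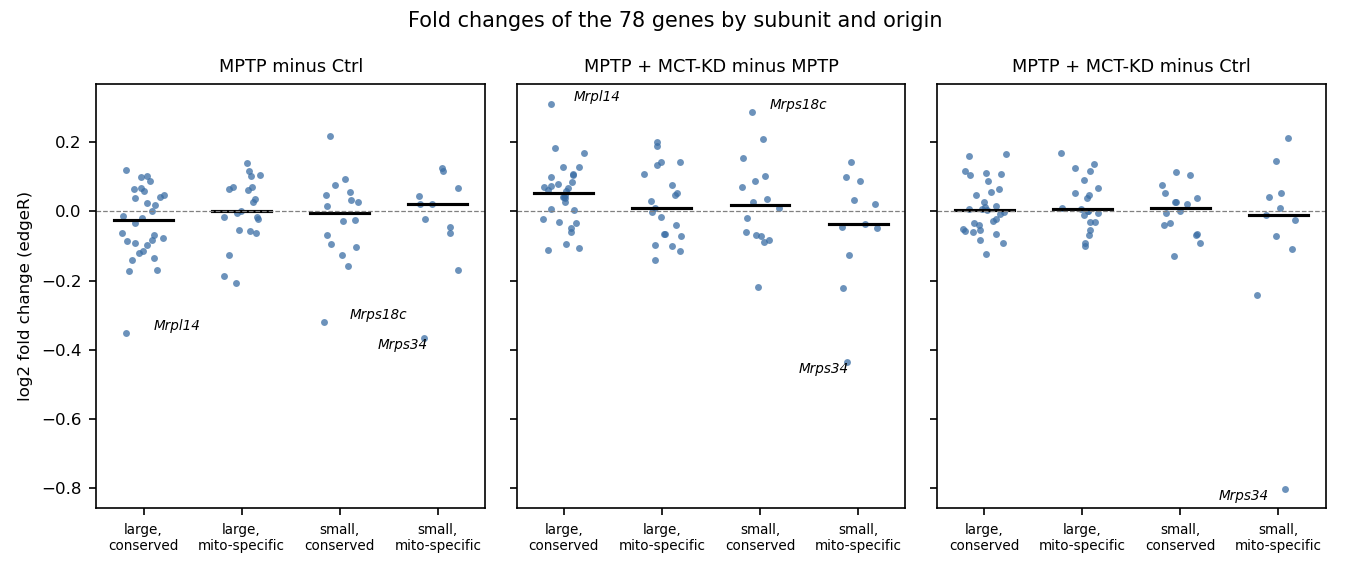
Log2 fold change of each of the 78 genes (points) in the 3 comparisons, by subunit and by whether the protein is conserved from bacteria. Black bars are medians, which lie between -0.035 and 0.053. Mrps34 is the lowest point in each panel, at -0.37, -0.44 and -0.80.

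The diet group was also compared with Ctrl. Again no gene passed by edgeR, and none of all genes tested did (0%), while DESeq2 called 1 of the 78, Mrps34, and 16 of all genes (0.107%). Above Ctrl lay 43 genes and below it 35, with a median log2 fold change of 0.0055 against -0.0015 for all genes tested. Within 0.25 of no change lay 77 of the 78 genes, and 12916 of all 14949 genes tested. The 95% interval lay within 0.5 of no change for 75 genes, and for 10578 of all genes tested. An unadjusted p under 0.05 was reached by Mrps34, which was lower, and by no higher gene (background 3.36% in each direction, 6.73% in either). On CPM the groups did not overlap for 5 higher genes, Mrps36, Mrpl46, Mrpl27, Mrpl30 and Mrps9, and for Mrps34, against 6.28% and 6.40% of all genes tested, or 12.7% in either direction.

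Mrps36, whose protein has also been described as a subunit of the oxoglutarate dehydrogenase complex (KGD4), measured 13.9, 15.9 and 14.9 CPM in Ctrl, 16.6, 15.2 and 15.1 in MPTP and 18.4, 17.2 and 16.1 in the diet group. Each diet library lay above each Ctrl library, by a log2 fold change of 0.21 (SE 0.099, edgeR adjusted p = 0.742). Mrpl46 stood at 0.17, Mrpl18 at 0.17, Mrpl27 at 0.16, Mrpl41 at 0.13, Mrpl43 at 0.14, Mrpl30 at 0.11 and Mrps9 at 0.11. On the lower side Mrps18b stood at -0.24, Mrps17 at -0.13, Mrps23 at -0.11 and Mrpl58, which encodes a peptidyl-tRNA hydrolase that rescues stalled ribosomes from within the large subunit, at -0.092. Mrpl45, Mrpl9 and Mrps6 stood between -0.068 and -0.064.

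Mrps34 (ENSMUSG00000038880, chr17:24895116-24897502, plus strand) had the largest fold change of the 78 genes in each comparison. Its product is a mitochondria-specific protein of the small subunit that is needed for the stability of the small subunit and its ribosomal RNA. Counts were 1778, 1560 and 1676 in Ctrl, 1282, 895 and 1414 in MPTP and 841, 845 and 938 in the diet group. As CPM these were 44.4, 40.5 and 48.1 in Ctrl, 36.3, 27.03 and 39.8 in MPTP and 24.2, 25.3 and 26.7 in the diet group. The diet libraries lay below all others, closely followed by MPTP 2, and MPTP 3 lay just below the lowest Ctrl library.

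The difference of the diet group from Ctrl in Mrps34 was -42.7%, a log2 fold change of -0.80 (SE 0.12, 95% interval -1.07 to -0.53). The unadjusted p of 3.23e-05 ranked 2 of 14949 genes, and the adjusted p by edgeR was 0.242, above the threshold. Against MPTP the log2 fold change was -0.44 (SE 0.12, adjusted p = 0.587), and in MPTP against Ctrl it was -0.37 (SE 0.12, adjusted p = 0.893). Without MPTP 2 the last of these was -0.22 (adjusted p = 0.959). When only Ctrl and the diet group were fitted, the log2 fold change between them was -0.80 with an adjusted p of 0.0111 by edgeR, and DESeq2 on all libraries gave an adjusted p of 2e-06. In the diet group against Ctrl the adjusted p was 0.00880 without MPTP 2, 0.0301 without MPTP 3 and 0.999 without Ctrl 3.

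The deposited FPKM of Mrps34 gave a smaller difference from Ctrl. The values were 34.8, 30.05 and 31.8 in Ctrl, 33.3, 21.9 and 30.5 in MPTP and 19.4, 21.3 and 19.7 in the diet group. On this scale MPTP overlapped Ctrl, and the diet group still lay below every other library. By limma on log2(FPKM + 0.1) the difference was -0.19 in MPTP against Ctrl, -0.48 in diet against MPTP and -0.67 in diet against Ctrl (adjusted p = 0.718). The transcript length that count and FPKM together imply was 1380 ± 138 bases in Ctrl, 1215 ± 133 in MPTP and 1251 ± 83.7 in the diet group (SD, n = 3), and its highest value was 1.43 times its lowest, the widest of the 78 genes. A ratio above 1.1 was found for 10 of the 78 (12.8%), against 15.6% of 12482 genes with enough counts. Next to Mrps34 came Mrpl58 at 1.32 and Mrpl17 at 1.26.

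GENCODE lists a coding transcript of Mrps34 with 3 exons and 918 bases, and a transcript marked for nonsense-mediated decay with 6 exons and 1884 bases that runs on through the next gene, Nme3, sharing 763 exonic bases with it. The gene Mapk8ip3 on the other strand encodes a scaffold for axonal transport. It overlaps 576 bases of the coding transcript and 1246 of the longer one. Only 1 of its transcripts reaches Mrps34, with 42 exons and also marked for nonsense-mediated decay. Its coding transcripts lie from base 24897506 on, past the end of Mrps34 at 24897502. These neighbours were chosen after their values were seen. Counted as a whole gene, Mapk8ip3 measured 572 to 642 CPM in the 9 libraries, far above Mrps34. These values do not give the level of the transcript that overlaps Mrps34. Nme3 measured 6.495, 2.65 and 3.41 CPM in Ctrl, 8.52, 2.27 and 3.09 in MPTP and 2.33, 3.26 and 1.65 in the diet group, with Ctrl 1 and MPTP 1 high.

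Eme2, which encodes a partner of the MUS81 DNA nuclease and starts 29 bases from Mrps34 in the other direction, measured 38.5, 36.0 and 38.7 CPM in Ctrl, 37.4, 25.2 and 40.3 in MPTP and 25.5, 31.3 and 37.4 in the diet group. It was low in MPTP 2, where Mrps34 was also the lowest of its group, and in diet 1. The log2 fold change of Eme2 in diet against Ctrl was -0.27 (SE 0.18, edgeR adjusted p = 0.840). For Mapk8ip3 it was 0.044 (SE 0.049), and for Nme3 -0.80 (SE 0.55, adjusted p = 0.840). In diet against MPTP the value of Nme3 was -0.94 (SE 0.55, adjusted p = 0.717). Between these groups the summed markers also differed: those of oligodendrocytes were 10172 to 12360 CPM in Ctrl and 12818 to 14157 in the diet group, and those of microglia 256 to 284 and 294 to 301. Astrocyte markers summed to 2490 to 2558 CPM in Ctrl and 2618 to 2857 in the diet group. The 10 dopamine neuron markers, given above, summed to less in every diet library than in every Ctrl library. Taken singly, 2 of the 10 lay lower without overlap (background 6.40%). The part of these cell types in the Mrps34 values, and that of reads shared with neighbours, was not tested.

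**Figure D5:**
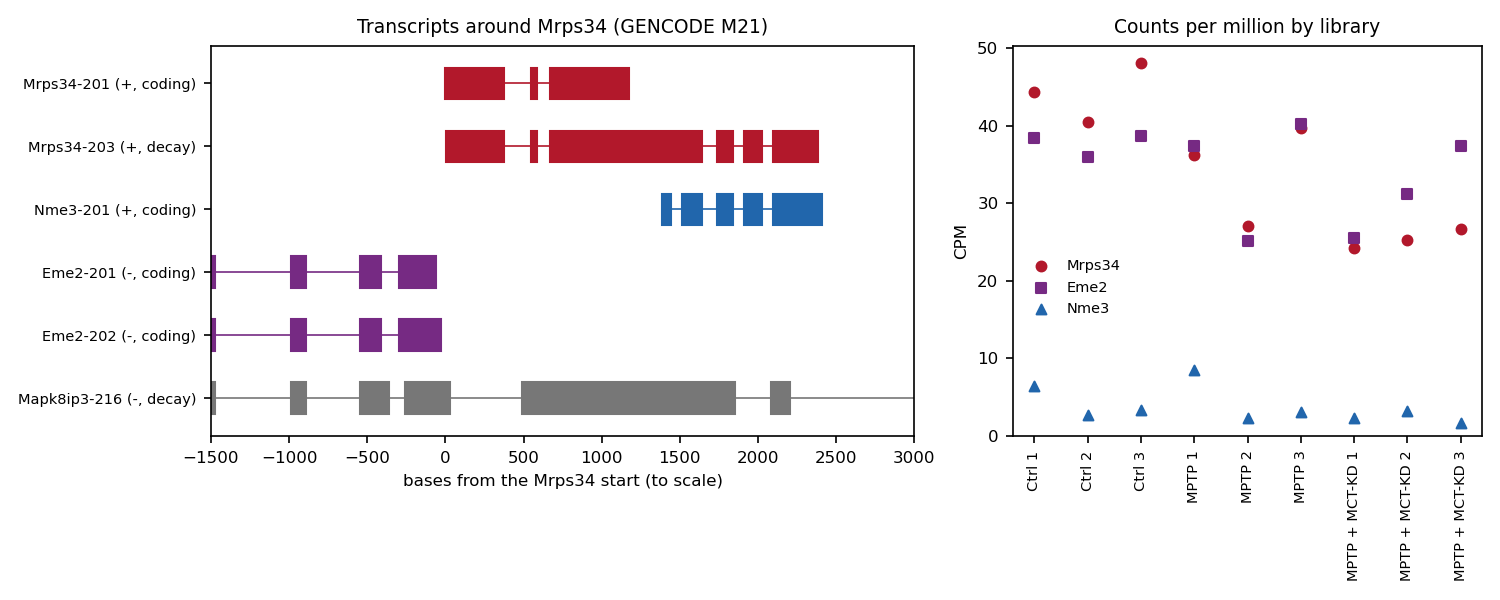
Left, exons (boxes) of Mrps34 and its neighbours by distance from the Mrps34 start in bases, with strand and transcript type. Right, CPM of Mrps34, Eme2 and Nme3 in each library. Mrps34 lies at 24.2 to 26.7 CPM in the diet libraries and at 40.5 to 48.1 in Ctrl, while Eme2 spans 25.5 to 37.4 in the diet libraries.

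Other genes of mitochondrial translation were read from lists of partners, and none of them passed by edgeR in any comparison. The 5 ribosomal proteins with other names (Dap3, Ptcd3, Chchd1, Aurkaip1 and Gadd45gip1) had log2 fold changes between -0.10 and 0.081 in the 3 comparisons. Of these, Dap3, a GTP-binding protein of the small subunit, measured 59.0 ± 3.83 CPM in Ctrl, 62.4 ± 5.53 in MPTP and 58.2 ± 3.21 in the diet group (SD, n = 3).

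Of 24 genes of ribosome assembly, 13 lay below Ctrl in MPTP, and 13 above MPTP in the diet group. Nsun4, a methyltransferase of the small-subunit ribosomal RNA that acts in assembly, measured 15.7 ± 1.28 CPM in Ctrl, 13.9 ± 0.103 in MPTP and 16.2 ± 0.0336 in the diet group, with an edgeR adjusted p of 0.630 between MPTP and diet. Mtg1, a GTPase of large-subunit assembly, stood at -0.25 in MPTP against Ctrl. Mettl15, a methyltransferase of the small-subunit ribosomal RNA, stood at 0.39 in diet against Ctrl (adjusted p = 0.742) from a low level of 3.48 ± 0.211 CPM in Ctrl. Rcc1l stood at -0.20 in diet against MPTP and Mterf4 at -0.22 in diet against Ctrl.

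Of 15 translation factors and RNA-binding partners, 9 lay below Ctrl in MPTP and 8 above MPTP in the diet group. Slirp, which stabilises mitochondrial messenger RNAs together with Lrpprc, had a log2 fold change of 0.29 in diet against MPTP (edgeR adjusted p = 0.630). Mrrf, the ribosome recycling factor, measured 24.8 ± 0.737 CPM in Ctrl, 24.8 ± 0.626 in MPTP and 27.6 ± 1.59 in the diet group. Among 9 genes of mitochondrial DNA expression, 7 lay below Ctrl in MPTP, and Twnk, the replicative helicase, measured 13.4 ± 0.698 CPM in Ctrl and 10.5 ± 1.53 in MPTP (adjusted p = 0.893). Exons of Twnk overlap those of Mrpl43, on the other strand, by 507 bases. Mterf2 stood at -0.24 in diet against Ctrl (adjusted p = 0.740).

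Of the 9 known regulators none passed in any comparison. Nrf1 stood at 20.3 ± 0.338 CPM in Ctrl, 21.5 ± 0.219 in MPTP and 20.1 ± 1.68 in the diet group. Gabpa stood at 25.7 ± 1.35, 25.2 ± 0.834 and 27.7 ± 0.296 CPM, with a log2 fold change of 0.14 in diet against MPTP (edgeR adjusted p = 0.680). Yy1 stood at 81.5 ± 3.62, 77.1 ± 1.85 and 84.2 ± 3.51 CPM, and the fold change of diet against MPTP was 0.13 (adjusted p = 0.630). Ppargc1a, the coactivator of mitochondrial biogenesis, was at 54.8 ± 3.36 CPM in Ctrl and 63.7 ± 1.76 in the diet group, a log2 fold change of 0.22 (adjusted p = 0.740). The 13 protein-coding transcripts of the mitochondrial genome, which this ribosome translates, had log2 fold changes between -0.22 and 0.21 in the 3 comparisons, and all mitochondrially encoded transcripts together took 6.14% to 7.06% of the counts of a library.

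Among nuclear complex I genes, 33 of 37 lay above MPTP in the diet group at a median of 0.066 (log2 fold change), and among cytosolic ribosomal protein genes 50 of 77 with a median of 0.021. For the 78 mitochondrial ribosomal protein genes the corresponding count was 47, as given above. MPTP 3 had the lowest median deviation from the Ctrl mean of the 9 libraries in all 3 lists, at -0.11 (log2) for complex I, -0.092 for cytosolic and -0.067 for mitochondrial ribosomal protein genes, and also for the 13 mitochondrial transcripts (-0.11). For complex I the other MPTP libraries stood at 0.064 (MPTP 1) and -0.040 (MPTP 2), and the diet libraries at 0.073, 0.067 and -0.0040. No test of a difference between these lists was made.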

How the data were processed

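For each gene and each of the 9 libraries, the table deposited by the authors gives a raw count and an FPKM. The build was GRCm38 (mm10), per the submitters' processing notes. The sources used here name no aligner, counting tool or strand setting. The 10 lines that named no gene were left out, and 27 symbols turned into dates were restored by identifier. The main test was the robust quasi-likelihood test of edgeR 4.0.16 with TMM scaling (R 4.3.3), fitted to the 9 libraries together, with Benjamini-Hochberg adjustment over the 14949 genes with a mean of at least 0.5 FPKM. CPM of single genes use TMM-scaled library sizes, and summed CPM of markers use the raw library totals. DESeq2 1.42.0, limma 3.58.1 on log2(FPKM + 0.1), other filters and libraries left out were alternatives, and the procedure was tested on simulated data. The members, lists and neighbours were chosen with earlier results of these data known. Genes named are, per comparison, the 8 of smallest p in each direction, the 6 highest and 6 lowest in level, Mrps34, the Mrps18 paralogs, Mrpl12, and the genes of smallest p of each other list. Same-numbered libraries of MPTP and the diet group deviated together at r = 0.107 to 0.182, and differently numbered ones at -0.150 to 0.0413. MPTP 1 and Ctrl 2, however, reached 0.186, so values of this size do not show pairs. The labels state no pairs, and the main test used no block by library number. The 9 pairs of libraries within groups differed by more than sampling noise.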

Additional observations from a re-analysis of the deposited data

How the results depend on the processing

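Precision was limited by 3 libraries a group. The number of the 78 genes called stayed 0 under all 19 alternatives in MPTP against Ctrl and in diet against MPTP. A replicate block changed no call among them. Over all genes, edgeR and limma called 0 to 4 under these alternatives in MPTP against Ctrl, and DESeq2 14. In diet against MPTP they called 0 to 1, and DESeq2 19. With so few calls, 0 of 78 does not set this list apart from other genes. In diet against Ctrl the count was 0 in the main edgeR fit. It became 1, Mrps34 each time, with DESeq2, and in edgeR with only the 2 groups compared or with a replicate block. With the block the log2 fold change was -0.80 (edgeR adjusted p = 0.0102). Same-numbered libraries correlated at -0.00735 to 0.0783 and were not taken as pairs. With single libraries left out, the edgeR count was 1 without MPTP 2 or without MPTP 3, and otherwise 0. Over all genes tested edgeR then called 4 with only the 2 groups, 5 with the block, 1 without MPTP 2 and 4 without MPTP 3, and DESeq2 16. Adjusted p-values of Mrps34 in diet against Ctrl ran from 2e-06 to 0.999, and the log2 fold change from -0.86 to -0.65. Without Ctrl 3 and MPTP 1 together it was -0.74 (adjusted p = 0.923). With single libraries left out, the log2 fold change of Mrps34 ran from -0.48 to -0.22 in MPTP against Ctrl and from -0.58 to -0.32 in diet against MPTP. The cause was not tested. The median of the 78 genes ranged from -0.036 to 0.023 in MPTP against Ctrl, from 0.0087 to 0.063 in diet against MPTP and from -0.011 to 0.015 in diet against Ctrl.

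Of the single genes named, 992 values kept direction and side of the threshold, and 10 small log2 fold changes reversed. Mrpl4 in MPTP against Ctrl was -0.0012 without Ctrl 3 and MPTP 1 together, and Mrps18a in diet against Ctrl was -0.0089 and -0.0086 by limma with pseudocounts of 0.1 and 1. The rest reversed when 1 library was left out, over which Mrps18b in MPTP against Ctrl ranged from -0.12 to 0.11, and in diet against Ctrl Mrpl9 from -0.14 to 0.0084, Mrps18a from -0.021 to 0.035, Mrps18c from -0.086 to 0.038 and Mrpl12 from -0.066 to 0.030.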
